A study of Solanum lycopersicum with 6 samples.

Results

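Genes that cleave, store and move sucrose were followed in axillary buds of 2 tomato cultivars, that is, in the side shoots borne at the base of the leaves. The list was drawn up by gene identifier and holds 9 loci: the cell wall invertases LIN5, LIN6 and LIN7, the vacuolar invertase TIV1, an invertase inhibitor, the sucrose synthases SUS1 and SUS3, the sucrose transporter SUT1 and a subunit gene of ADP-glucose pyrophosphorylase. Values were analysed for 8 of them, among 25440 loci in all; LIN5 was not analysed here. RNA sequencing had been done on 3 libraries of compound raceme and 3 of monomaker buds, numbered 1 to 3 in each cultivar, from plants of a greenhouse. The labels give the cultivar and the tissue, and no mutant allele, treatment, age or bud position, so the groups differ by cultivar as a whole. No label ties a library to a plant, so the spread on which the p-values rest may be that of technical repeats.

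Sucrose made in leaves is carried in the phloem to growing organs. Invertases split it into glucose and fructose, outside the cell at the wall or inside it in the vacuole, and small inhibitor proteins hold them in check. Sucrose synthases cleave it in the cytosol to fructose and UDP-glucose, a substrate of cell wall synthesis. ADP-glucose pyrophosphorylase makes the sugar donor for starch. In pea and rose, sucrose supply is known to promote the outgrowth of axillary buds.

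The names rest on a comparison of each identifier's place on its chromosome with the place of the named gene in the RefSeq gene table. The inhibitor locus Solyc12g099200 lay where RefSeq lists CIF1, a cell wall invertase inhibitor, next to its relative VIF. The order of the identifiers tells these neighbours apart, and their place alone does not. Solyc01g079790, listed as AGPL1, did not lie near the RefSeq gene AgpL1. It differed from that gene by 0.603 of the chromosome's genes in place, and from AGPL3 by 0.071, and is called AGPL3 below. AgpL1 lay at Solyc01g109790. For SUS3 the table gives coordinates, chromosome 7 from 56098858 to 56104538 on the minus strand of SL3.0; the other members' rows carry none.

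Levels are in FPKM, which counts fragments per length of transcript and relative to the library's total. No read counts are used, and the depth of each library is unknown. Of 4 loci listed as bud markers, the regulators BRC1B, BRC1A and LS and the locus Solyc11g069030, none was at 0 in all libraries. Their summed level was 48.7 to 64.9 FPKM in compound raceme, against 14.5 to 43.8 FPKM in monomaker. BRC1B made up most of this sum in every library, with a log2 fold of 1.19 (adjusted p = 0.113 in limma). The folds of BRC1A and Solyc11g069030 were 0.41 and -0.31, and both overlapped between the cultivars. LS had means of 0.78 FPKM in compound raceme, against 0.79 FPKM in monomaker, and was not tested. Of the 3 tested bud markers, 0 were called at an adjusted p below 0.05 in limma, against 3.27% of all tested loci. The summed level of 5 floral organ genes was 52.3 to 82.6 FPKM in compound raceme, against 48.1 to 55.2 FPKM in monomaker. Most of that sum came from 1 gene, TM6, while 3 of the 5 genes were lower in compound raceme at an adjusted p below 0.05 in limma, and the median log2 fold of the 5 was -2.0. For 6 cell cycle genes the summed level was 17.4 to 35.3 FPKM in compound raceme, against 137 to 238 FPKM in monomaker. All 6 were lower in compound raceme at an adjusted p below 0.05 in limma, against 473 of all 18802 tested loci. For 5 photosynthesis genes the summed level was 1409 to 3934 FPKM in compound raceme, against 3133 to 19651 FPKM in monomaker, and 0 of the 5 were called. In bulk buds, fewer cells of a type and less RNA per cell cannot be told apart.

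None of the 8 genes passed the test between the cultivars. In limma on log2(FPKM + 1), with Benjamini-Hochberg adjustment over 18802 loci, 0 were called at an adjusted p below 0.05, against 3.27% of all tested loci. At an unadjusted p below 0.05 there was 1 member, AGPL3, against 25.7% of all loci. AGPL3 was also the 1 member whose cultivars did not overlap, against 31.7% of all loci. Of the 8 genes, 5 had a log2 fold above 0 and 3 below, with a median of 0.27, against 0.04 over all tested loci. Every fold is a difference of log2(FPKM + 1), monomaker subtracted from compound raceme, and comes out too small for genes of low level. Errors below are SD over 3 libraries or the SE of a fold.

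**Figure D1:**
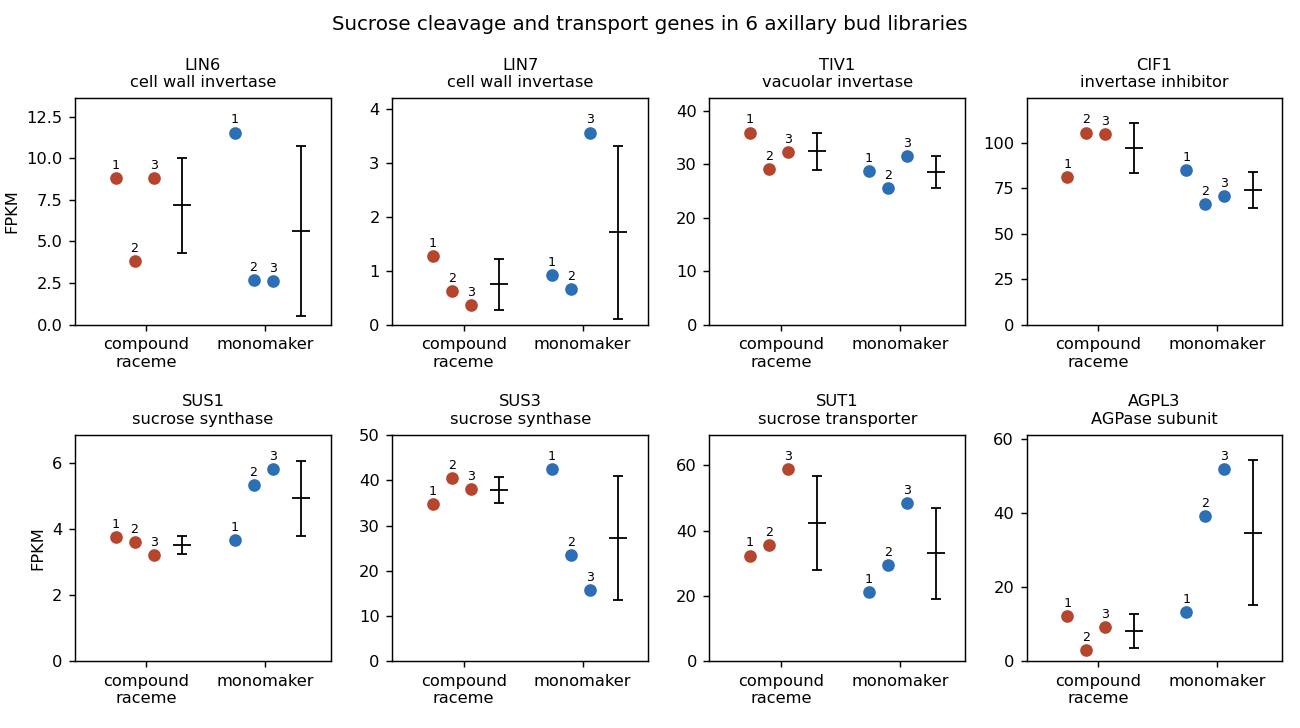
FPKM of the 8 genes in each library, with library numbers above the points, compound raceme in red and monomaker in blue; the bar beside each group is its mean and SD (n = 3). AGPL3 is the gene whose cultivars do not overlap, with 3.06 to 12.2 FPKM in compound raceme, against 13.3 to 51.9 FPKM in monomaker.

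Of the 3 listed invertases with values, TIV1 was the most abundant and the steadiest. TIV1 (Solyc03g083910), the soluble acid invertase of the vacuole, had 36.0, 29.1 and 32.4 FPKM in compound raceme 1 to 3, against 28.8, 25.6 and 31.6 FPKM in monomaker 1 to 3. The ranges overlapped, and the highest library was 1.24 times the lowest within compound raceme and 1.23 times within monomaker. Its log2 fold was 0.17 (SE 0.15, 95% interval -0.18 to 0.52, adjusted p = 0.484 in limma).

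LIN6 (Solyc10g083290), a cell wall invertase known from sink tissues and wounding, differed more between libraries than between cultivars. It had 8.83, 3.85 and 8.81 FPKM in compound raceme, against 11.5, 2.70 and 2.64 FPKM in monomaker. Monomaker 1 held the highest value of all 6 libraries and the other two monomaker libraries the lowest. LIN6 had a log2 fold of 0.49 (SE 0.54, 95% interval -0.79 to 1.77, adjusted p = 0.594 in limma). Without monomaker 1 it was 1.08 (adjusted p = 0.0969 in limma), where 10.9% of all loci were called. Without monomaker 3 it was 0.19 (adjusted p = 0.877), where only 15 of all tested loci were called.

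LIN7 (Solyc09g010090), a cell wall invertase known from stamens and pollen, was near the lower limit of the test. It had 1.28, 0.62 and 0.36 FPKM in compound raceme, against 0.93, 0.66 and 3.57 FPKM in monomaker. Only monomaker 3 stood above the compound raceme range. Its fold on the log2 scale was -0.51 (SE 0.43, 95% interval -1.54 to 0.51, adjusted p = 0.477 in limma), and without monomaker 3 the gene fell under the limit of 1 FPKM for testing. The 5 floral organ markers differed among themselves between the cultivars. The MADS-box genes TM5, TPI and TM29 had log2 folds of -2.19, -2.0 and -2.31 and passed (adjusted p = 0.0193, 0.0193 and 0.0184 in limma), and TM5 had values of 0, 0 and 0.05 FPKM in compound raceme, against 5.18, 3.63 and 2.45 FPKM in monomaker. TM6 lay higher in compound raceme without overlap, with a log2 fold of 0.82 that missed the threshold (adjusted p = 0.0842 in limma), and TAG1 had a log2 fold of 0.06 (adjusted p = 0.866 in limma). The part of floral tissue in the LIN7 values was not tested. RefSeq lists LIN7 directly beside lin5, with 0 protein-coding genes between them.

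Summed over LIN6, LIN7 and TIV1, invertase level was 40.4 ± 6.36 FPKM in compound raceme, against 36.0 ± 6.33 FPKM in monomaker (SD, n = 3 each). TIV1 made up 80.9% ± 5.01 of that sum in compound raceme and 80.6% ± 9.67 in monomaker. The share of the vacuolar gene thus differed between the cultivars by less than the spread between libraries.

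The inhibitor gene CIF1 (Solyc12g099200) was the most abundant member in both cultivars. It had 81.1, 106 and 105 FPKM in compound raceme, against 85.3, 66.4 and 70.6 FPKM in monomaker. Compound raceme 2 and 3 lay above all monomaker libraries, whereas compound raceme 1 lay below monomaker 1. The log2 fold was 0.38 (SE 0.18, 95% interval -0.03 to 0.80, adjusted p = 0.221 in limma). Set against the summed invertases, CIF1 had a ratio of 1.76, 3.15 and 2.52 in compound raceme and of 2.07, 2.29 and 1.87 in monomaker, and these ranges overlapped. Most of that sum was the vacuolar gene TIV1, so the ratio does not set this cell wall invertase inhibitor against cell wall invertases alone.

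VIF (Solyc12g099190), the neighbouring gene for a vacuolar invertase inhibitor, is no member but belongs to the same step. It had 7.11, 8.33 and 6.72 FPKM in compound raceme, against 4.61, 4.47 and 3.90 FPKM in monomaker. All compound raceme libraries lay above all monomaker libraries. The log2 fold was 0.65 (SE 0.16), and an adjusted p of 0.0722 in limma missed the threshold. CIF1 was 13.2 ± 2.14 times VIF in compound raceme and 17.2 ± 2.0 times in monomaker, with ranges that overlapped.

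The sucrose synthases SUS3 and SUS1 had folds of opposite sign, and neither passed the test. SUS3 (Solyc07g042550) had 34.8, 40.5 and 38.1 FPKM in compound raceme, against 42.5, 23.5 and 15.8 FPKM in monomaker. The compound raceme libraries lay close together, and monomaker held both the highest and the lowest value, with its highest library 2.69 times its lowest. SUS3 had a log2 fold of 0.57 (SE 0.33, 95% interval -0.22 to 1.35, adjusted p = 0.316 in limma). Without monomaker 1 it was 0.93 and passed (adjusted p = 0.0409 in limma), in a fit where 10.9% of all loci passed. Without monomaker 3 it was 0.25 (adjusted p = 0.616), in a fit where only 15 of all tested loci passed.

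SUS3 was the 1 member with several rows in the table, and the level above is their sum. The row with coordinates had 32.1, 38.9 and 28.4 FPKM in compound raceme, against 39.8, 20.8 and 13.0 FPKM in monomaker. The row without them had 2.63, 1.59 and 9.72 FPKM in compound raceme, against 2.67, 2.70 and 2.85 FPKM in monomaker. Compound raceme 3 was thus the library with the lowest value of its cultivar in the first row and the highest in the second. The sources used here do not say which transcripts the rows stand for.

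SUS1 (Solyc12g009300) had 3.75, 3.60 and 3.21 FPKM in compound raceme, against 3.66, 5.34 and 5.81 FPKM in monomaker. Monomaker 1 lay inside the compound raceme range and the other two monomaker libraries above it. The log2 fold was -0.38 (SE 0.20, 95% interval -0.84 to 0.09, adjusted p = 0.273 in limma). SUS3 made up 90.3%, 91.8% and 92.2% of the sum of both genes in compound raceme and 92.1%, 81.5% and 73.1% in monomaker. SUS4 (Solyc09g098590), a further sucrose synthase outside the list, had 36.0 ± 3.46 FPKM in compound raceme, against 39.0 ± 2.47 FPKM in monomaker, with a log2 fold of -0.11 (95% interval -0.44 to 0.21, adjusted p = 0.624 in limma). SUS3 over SUS4 was 0.869, 1.2 and 1.11 in compound raceme and 1.03, 0.595 and 0.435 in monomaker.

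SUT1 (Solyc11g017010), the plasma membrane carrier known for loading sucrose into the phloem, varied within both cultivars. It had 32.4, 35.8 and 58.8 FPKM in compound raceme, against 21.2, 29.6 and 48.4 FPKM in monomaker. Library 3 was the highest in each cultivar, but the numbers are not given as pairs. For SUT1 the log2 fold was 0.38 (SE 0.34, 95% interval -0.44 to 1.19, adjusted p = 0.516 in limma), and it was 0.11 without monomaker 1 and 0.12 without compound raceme 3. Of the summed sucrose transporter level of SUT1, SUT2 and SUT4, SUT1 held 72.4% ± 6.59 in compound raceme and 67.4% ± 12.9 in monomaker. SUT2 (Solyc05g007190) had 13.4 ± 0.898 FPKM in compound raceme, against 12.1 ± 2.90 FPKM in monomaker (adjusted p = 0.602 in limma). SUT4 (Solyc04g076960) had 1.39, 2.18 and 2.08 FPKM in compound raceme, against 2.86, 2.79 and 2.33 FPKM in monomaker, without overlap (log2 fold -0.35, adjusted p = 0.304 in limma).

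AGPL3 (Solyc01g079790), a large subunit gene of the enzyme that opens starch synthesis, had the largest absolute fold of the 8. It had 12.2, 3.06 and 9.23 FPKM in compound raceme, against 13.3, 39.2 and 51.9 FPKM in monomaker. All compound raceme libraries were below all monomaker libraries, but monomaker 1 lay just above compound raceme 1. The log2 fold was -1.93 (SE 0.60, 95% interval -3.36 to -0.50), and the adjusted p of 0.116 in limma did not pass. Without monomaker 1 the fold was -2.50 and passed (adjusted p = 0.0355), against 10.9% of all loci in that fit. It also passed without library 1 of both cultivars (adjusted p = 0.0336, with 10.3% of all loci called) and with library weights in limma (adjusted p = 0.0213, with 22.2% called). Without compound raceme 2 the fold was -1.43 (adjusted p = 0.319 in limma), in a fit where only 6 of all tested loci were called.

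In the authors' deposited table AGPL3 had a log2 ratio of -1.93 with a q-value of 0.00608, and it was the only 1 of the 9 member rows with a q below 0.05, against 10.2% of all rows. The other 8 rows had q-values of 0.297 to 0.858 in the authors' deposited table. The deposited test and limma on FPKM thus gave a different call for this gene with the same size of difference. The sources used here do not say how the deposited p-values were computed.

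Photosynthesis markers had the same lowest and highest libraries as AGPL3. Their summed level over 5 of 5 loci, all above 0 in every library, was 2999, 1409 and 3934 FPKM in compound raceme, against 3133, 13794 and 19651 FPKM in monomaker. Compound raceme 2 was the lowest library and monomaker 2 and 3 were the highest for both AGPL3 and this sum. In between, the order differed, with compound raceme 3 above monomaker 1 for the sum and below it for AGPL3. Of the wider pathway list, Solyc07g056140 and the fructokinase gene FRK3 shared these extremes, while AgpL1 and AGP-S2 did not. How many of all loci share them was not counted. The part of green tissue in the AGPL3 values was not tested. Among the other subunit genes, AgpL1 had 25.0, 13.0 and 16.0 FPKM in compound raceme, against 34.7, 20.3 and 18.6 FPKM in monomaker (log2 fold -0.42, adjusted p = 0.419 in limma). Its fold was -0.15 without monomaker 1 and 0.16 in the more abundant of its rows, so the sign rested on the summing of rows. AGP-S2 (Solyc07g019440; RefSeq synonym agpL2) had 39.3, 30.2 and 27.8 FPKM in compound raceme, against 42.4, 27.7 and 23.7 FPKM in monomaker (log2 fold 0.08, adjusted p = 0.862 in limma). Solyc07g056140, entered under the same enzyme by identifier and without a RefSeq name, had 43.9, 25.0 and 28.4 FPKM in compound raceme, against 54.3, 81.2 and 95.3 FPKM in monomaker. It lay lower in compound raceme without overlap, as AGPL3 did, and missed the threshold (log2 fold -1.23, SE 0.28, adjusted p = 0.0689 in limma). AGPL3 made up 15.9%, 6.62% and 17.4% of the sum of AGPL3, AgpL1 and AGP-S2 in compound raceme and 14.7%, 44.9% and 55.1% in monomaker. In monomaker 2 and 3 it was the most abundant of the 3, and in the other 4 libraries the least.

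**Figure D2:**
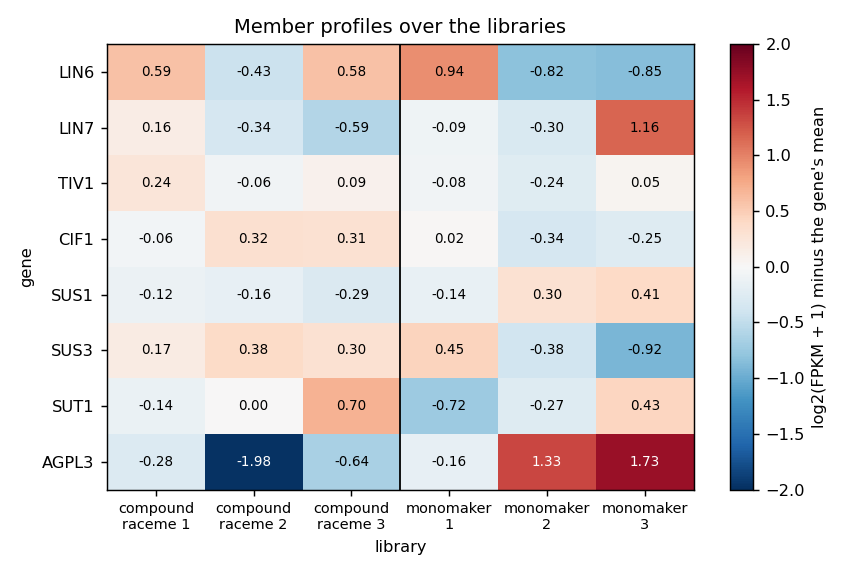
Level of each gene in each library as log2(FPKM + 1) minus the gene's mean over the 6 libraries, red above and blue below it, with compound raceme left of the black line. Monomaker 1 has the sign opposite to monomaker 2 and 3 for LIN6 (0.94), CIF1 (0.02), SUS1 (-0.14), SUS3 (0.45) and AGPL3 (-0.16).

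Within monomaker, library 1 was often nearer to compound raceme than to libraries 2 and 3, among these genes and among all loci. On the log2 scale its value was nearer to the compound raceme mean than to the mean of monomaker 2 and 3 for 6 of the 8 genes, all but TIV1 and SUT1, against 52.6% of all tested loci. LIN7 is among the 6 through monomaker 3 (3.57 FPKM), while monomaker 1 and 2 lay close together (0.93 and 0.66 FPKM). With monomaker 1 left out, the cultivars did not overlap for 5 genes, with LIN6, CIF1 and SUS3 higher and SUS1 and AGPL3 lower in compound raceme. In that comparison 31.4% of all tested loci lay higher and 20.6% lower without overlap, 52.0% in all, so the members' share of 62.5% was near the background. Nothing in the labels sets monomaker 1 apart, and the reason for its place was not tested. The SD of log2 values was smaller in compound raceme than in monomaker for 6 of the 8 genes, as for SUS3 with 0.11 in compound raceme and 0.69 in monomaker. Over all tested loci the median SD was likewise smaller in compound raceme, at 0.20, against 0.26 in monomaker. The share of all loci with this order was not counted.

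Ranked by FPKM, which is scaled by length, CIF1 came first in both cultivars, at 97.2 ± 13.9 FPKM in compound raceme, against 74.1 ± 9.90 FPKM in monomaker, with no library of another member in its range. In compound raceme it was followed by SUT1, SUS3 and TIV1, at 42.3, 37.8 and 32.5 FPKM, where each neighbour overlapped the next. A gap separated these from AGPL3 and LIN6, at 8.15 and 7.16 FPKM, which overlapped, and SUS1, at 3.52 FPKM, lay below LIN6 and inside the range of AGPL3. LIN7 was last, at 0.753 FPKM, below all libraries of the other genes. In monomaker AGPL3 stood second, at 34.8 FPKM, in 1 overlapping run with SUT1, TIV1 and SUS3 at 33.1, 28.7 and 27.2 FPKM. LIN6 and SUS1 followed at 5.63 and 4.94 FPKM and overlapped, and LIN7 was last at 1.72 FPKM, where its highest library lay above the lowest libraries of LIN6. Over all 25440 loci, the mean level of CIF1 lay at the 94.5th percentile and that of LIN7 at the 27.9th.

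The wider pathway was read from a list of 36 further loci, covering other invertases and inhibitors, sucrose synthesis, transport, hexose phosphorylation and starch entry. Their names could be placed in RefSeq for 16, and 20 are known here by identifier only. Of 30 tested, 0 were called in limma, against 3.27% of all tested loci, and 7 had an unadjusted p below 0.05, against 25.7%. The cultivars did not overlap for 2 higher and 5 lower loci, against 16.4% and 15.3% of all loci. The median log2 fold of the 30 was -0.07.

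**Figure D3:**
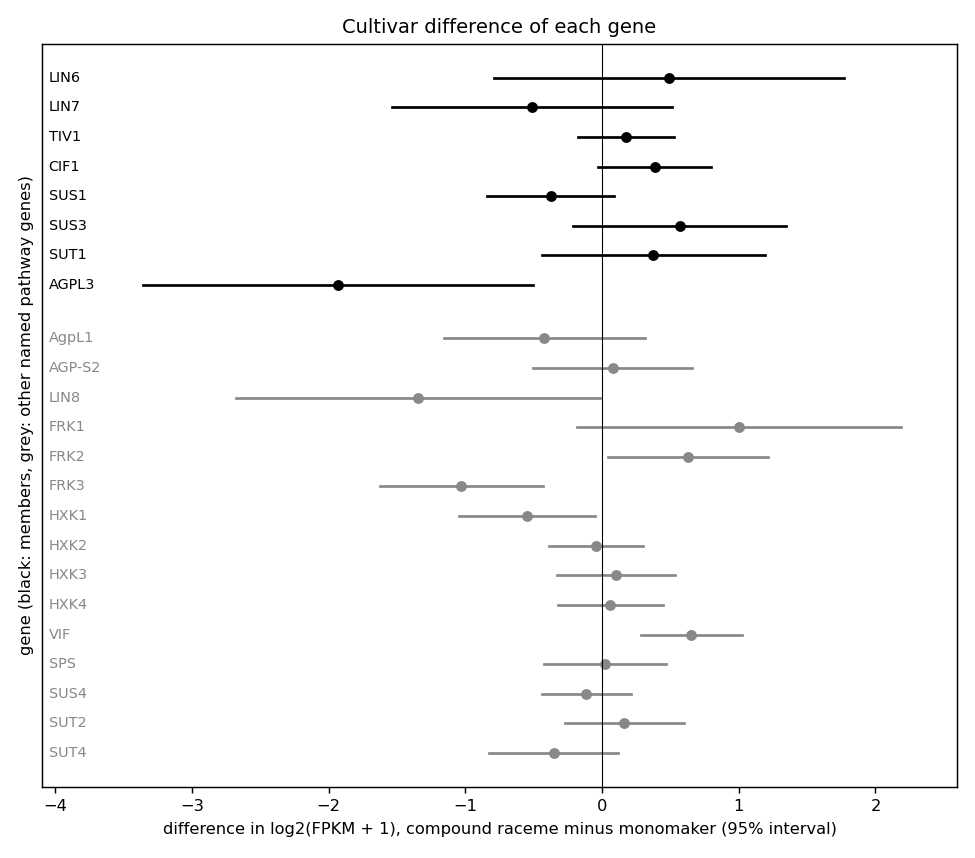
Difference in log2(FPKM + 1), compound raceme minus monomaker, of the 8 genes (black) and of 15 other named pathway genes that were tested (grey), with 95% intervals of limma before any adjustment. AGPL3 has the lowest value, -1.93, and FRK1 the highest, 1.0; intervals that leave out 0 belong to genes whose adjusted p missed 0.05.

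The hexoses released by invertase are phosphorylated by hexokinases and fructokinases, and the fructokinases FRK2 and FRK3 differed in opposite directions without being called. FRK3 (Solyc02g091490), the plastid fructokinase, had 22.6, 22.0 and 31.7 FPKM in compound raceme, against 38.2, 68.5 and 54.7 FPKM in monomaker. The groups did not overlap, and the log2 fold was -1.03 (SE 0.25, adjusted p = 0.0759 in limma). FRK2 (Solyc06g073190), a cytosolic fructokinase, had 63.6, 106 and 109 FPKM in compound raceme, against 66.9, 49.5 and 59.2 FPKM in monomaker, with overlap through compound raceme 1 and a log2 fold of 0.63 (SE 0.25, adjusted p = 0.172 in limma). FRK2 over FRK3 was 2.81, 4.83 and 3.43 in compound raceme and 1.75, 0.723 and 1.08 in monomaker, and these ratios did not overlap. FRK2 and this ratio were chosen after the values had been seen, and the ratio was not tested.

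Of the hexokinases, HXK1 (Solyc03g121070), known for glucose sensing from its Arabidopsis relative, had 6.87 ± 0.393 FPKM in compound raceme, against 10.8 ± 3.21 FPKM in monomaker, without overlap (log2 fold -0.55, adjusted p = 0.164 in limma). HXK2, HXK3 and HXK4 had log2 folds of -0.05, 0.10 and 0.06, and that of HXK4 was -0.51 in the more abundant of its rows. SPS (Solyc07g007790), a sucrose phosphate synthase gene of sucrose making, had 14.1 ± 2.58 FPKM in compound raceme, against 13.8 ± 2.18 FPKM in monomaker. LIN8 (Solyc10g083300), which RefSeq lists directly beside LIN6, had 0.09, 0.13 and 0.48 FPKM in compound raceme, against 0.25, 3.06 and 4.90 FPKM in monomaker (log2 fold -1.35, adjusted p = 0.191 in limma). LIN6 and LIN8 thus differed in their profile over monomaker, LIN6 being highest and LIN8 lowest in library 1. Without monomaker 1 the fold of LIN8 was -2.0 and passed (adjusted p = 0.016 in limma), against 10.9% of all loci in that fit. LIN8 was also named after its values had been seen.

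Of the 15 tested loci known by identifier only, the groups did not overlap for 3, against 31.7% of all tested loci. These were Solyc07g056140 and the loci Solyc01g111100 and Solyc04g081440, both entered as neutral invertases and without a RefSeq name. Solyc01g111100 had 4.07, 2.52 and 1.76 FPKM in compound raceme, against 12.3, 7.26 and 4.92 FPKM in monomaker (log2 fold -1.24, adjusted p = 0.102 in limma). Solyc04g081440 had 116, 148 and 114 FPKM in compound raceme, against 91.7, 90.4 and 107 FPKM in monomaker (log2 fold 0.38, adjusted p = 0.214 in limma). Solyc04g081440 was thus above TIV1 in every library.

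**Figure D4:**
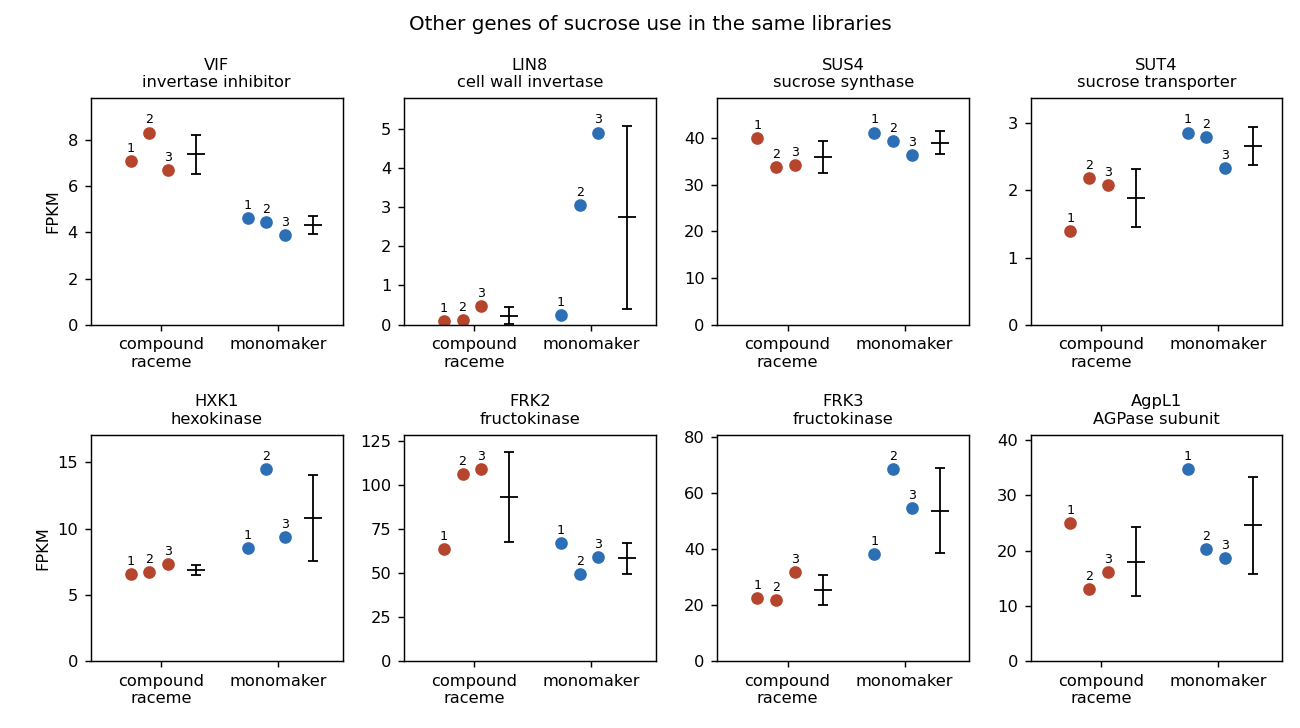
FPKM of 8 further pathway genes in each library, with library numbers above the points, compound raceme in red and monomaker in blue; the bar beside each group is its mean and SD (n = 3). VIF lies at 6.72 to 8.33 FPKM in compound raceme, against 3.90 to 4.61 FPKM in monomaker, and FRK3 at 22.0 to 31.7 FPKM in compound raceme, against 38.2 to 68.5 FPKM in monomaker.

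Profiles were compared by the root mean square difference of log2(FPKM + 1) over the 6 libraries, after each gene's mean was removed, among the 8 genes and the 30 tested pathway loci. CIF1 was most like FRK2, with a difference of 0.18 against a median of 0.38 to all 37 other loci. AGPL3 was most like LIN8, at 0.59, and then Solyc07g056140, at 0.60, against a median of 1.23. LIN6 was nearest to SUS3 at 0.48, SUS3 to SUT2 at 0.33, and SUS1 to Solyc10g080600 at 0.22. LIN7 was nearest to Solyc03g098290 at 0.22, TIV1 to Solyc02g081300 at 0.08 and SUT1 to Solyc01g100810 at 0.31. These distances rest on 6 libraries of 2 cultivars and describe likeness over them only.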

How the data were processed

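RNA had been extracted with Trizol from axillary buds and sequenced as BGI500 libraries, per the labels' protocols. Per the file headers, the authors deposited FPKM in a table of 31139 rows, and its values have 2 decimals. DESeq2 1.4.5, RSEM 1.2.12, HISAT2 2.0.4 and Bowtie2 2.2.5 are named in the submitters' processing notes with no role given. Its other columns are the deposited log2 ratio (compound raceme over monomaker), p-value and q-value of the authors, per the file headers. The sources used here do not give the annotation release, strand use or scaling between libraries.

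The rows of a locus were summed (5699 loci have 2). A locus was tested where its mean reached 1 FPKM. The fit of log2(FPKM + 1) used limma (3.58.1, under R 4.3.3) with a trend of the variance on the level and no term but the cultivar, and Benjamini-Hochberg adjustment over all tested loci. It was also run on simulated data with independent normal noise, of the same spread in both cultivars for each locus. Such data hold no library that stands apart, so that run does not bear on how the calls change with the libraries used. FPKM carry no counts, so no counting interval is given. Library totals ran from 674654 to 750250 FPKM.

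RefSeq names (assembly SLM_r2.1) were accepted within 0.1 of the chromosome's genes of the identifier's place, a tolerance set after the differences had been seen. The members, lists and identifiers were chosen with earlier results of these data known. All members are named. Of the further pathway loci, the rule named those past the threshold and, failing 6 of these, up to 4 in each direction with the largest folds among loci without overlap. SUS4, SUT2, SUT4, SPS, AgpL1, AGP-S2, HXK2, HXK3, HXK4, FRK1, FRK2 and LIN8 are also named, outside that rule. No sequence is shown, as no sequence table was used here. Alternatives covered the pseudocount, filter, row summing, scaling, variance model, block and the libraries used.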

Additional observations from a re-analysis of the deposited data

How the results depend on the processing

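All 8 genes kept the sign of their fold under each of the 18 alternatives that gave a value; LIN7 and LIN8 gave none without monomaker 3, where they fell under the filter. The count of 0 called members became 2 with library weights (CIF1, adjusted p = 0.044, and AGPL3, 0.0213), where 4175 loci, 22.2% of all, were called, and 1 without replicate 1 of both cultivars (AGPL3, 0.0336), where 1921 were called. Leaving out single libraries gave 0 to 2 called members and 6 to 2041 called loci, against 614 with all libraries; the lowest 4 counts, 6, 7, 8 and 15, came without compound raceme 2, compound raceme 3, monomaker 2 and monomaker 3. The 2 members came without monomaker 1 and were SUS3 and AGPL3. Of the other pathway loci, 7 were called with library weights, 4 without replicate 1 of both cultivars, and 0 to 3 with single libraries left out. Over the alternatives the adjusted p of AGPL3 ran from 0.0213 to 0.319 and that of SUS3 from 0.0409 to 0.616. The cause of these changes was not tested. With the number in the titles as a replicate block, 0 members, 0 pathway loci and 0 of all loci were called in limma. At an unadjusted p below 0.05 there were 4676 loci in that fit. Deviations of same-numbered libraries had an r across loci of 0.03, 0.06 and 0.10, against -0.17 to 0.10 for libraries of unlike number. With the block the SE of the SUT1 fold was 0.14, against 0.34 without it. Whether same-numbered libraries were handled together was not tested. HXK4 had a log2 fold of -0.51 and AgpL1 of 0.16 in the more abundant of their rows, against 0.06 and -0.42 for the summed rows. Without counts, depth sets no limit that can be stated here.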
